A study of Arabidopsis thaliana with 4 samples.

Results

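The comparison described here sets an Arabidopsis thaliana line that overexpresses a truncated form of the cowpea protein VuDREB2A against a line that overexpresses the full-length protein. Its material is all 4 arrays of the series, 2 for each line, so every sample enters. On each 2-colour Agilent array, labelled RNA of 1 line competed with labelled RNA of wild type, and the readout is the log2 ratio of line over wild type. The groups were the truncated line (35S:VuDREB2A, truncated), the full-length line (35S:VuDREB2A, full length) and wild type Col-0, which was the background of both lines. All were whole plants, 21 days old and untreated, grown on vertical agar plates with sucrose. In both lines the constitutive 35S promoter drove the transgene, so that it was not limited to the cells or conditions in which a DREB2 gene is normally active. As far as the labels state, 1 line stood for each construct, and a difference between the constructs cannot be told apart from a difference between the lines that carry them. The labels do not say which residues the truncated form lacks, and the transgene's own level was not analysed here.

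Replicate 1 of each line was labelled with Cy3 against wild type in Cy5, and replicate 2 with the dyes exchanged. A difference taken within a replicate number therefore compares arrays of the same dye orientation. Unless the replicate block is named, SEs and adjusted p-values come from a fit without this pairing. There a shift between replicate numbers that both lines share counts as spread. Genes given as not past the threshold are so in that fit, and the fit with the block is given mostly as counts. Wild type is listed with 2 replicates for 4 arrays, and the same wild type RNA may therefore have served both lines. All 4 arrays lay on 1 slide and were scanned together, and depending on the channel, 65.6% to 72.5% of the probes stood well above background. No gene spot was saturated. The labels call the samples biological replicates without saying which plants were pooled, so p-values measure the spread between these arrays.

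DREB2 proteins are transcription factors of plants that bind the dehydration-responsive element (DRE) in the promoters of drought and heat genes. Arabidopsis DREB2A is short-lived in unstressed plants because an internal stretch marks it for degradation, and a form without that stretch is stable and active. Whole plants mix roots, which take up iron, phosphate and nitrate, with shoots, which hold most of the photosynthetic and many of the defence transcripts. In bulk samples such as these, fewer cells of a type and less RNA per cell cannot be told apart.

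Of the 22438 features tested, 701 (3.12%) differed between the lines, 218 of them (0.972%) higher and 483 (2.15%) lower in the truncated line than in the full-length line. A feature is a gene or, where the array gives no locus, a probe, and it was called at a Benjamini-Hochberg adjusted p under 0.05 in limma's fit. Of the 701, 663 carried a locus. The middle called rise was 0.74 and the middle called fall -0.74 on the log2 scale, while the median difference over all features was -0.0034 and its median size 0.13. At least 2-fold differences numbered 46 upward and 102 downward. With the replicate number as a block in the fit, 8782 features (39.1%) passed, 4023 higher and 4759 lower, on 1 residual degree of freedom. With median centring in place of loess, limma called 0 features, 426 having an unadjusted p under 0.05 against 4592 with loess. The scanner software's own log ratios gave 173.

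Each line's own test against wild type shows where these differences lay. Truncated over wild type, 13.2% of features passed (7.09% higher, 6.15% lower), and full-length over wild type 15.5% (9.41% higher, 6.14% lower). Of the 218 features that were higher in the truncated line, 95 rose over wild type there and did not pass in the full-length line, 67 fell below wild type in the full-length line and did not pass in the truncated line, and 37 did both. The other 19 moved the same way in both lines, 16 upward and 3 downward. Of the 483 that were lower in the truncated line, 136 fell below wild type there without passing in the full-length line, and 198 rose in the full-length line without passing in the truncated line. A further 95 moved in opposite directions, 37 rose in both lines and 17 fell in both.

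**Figure D1:**
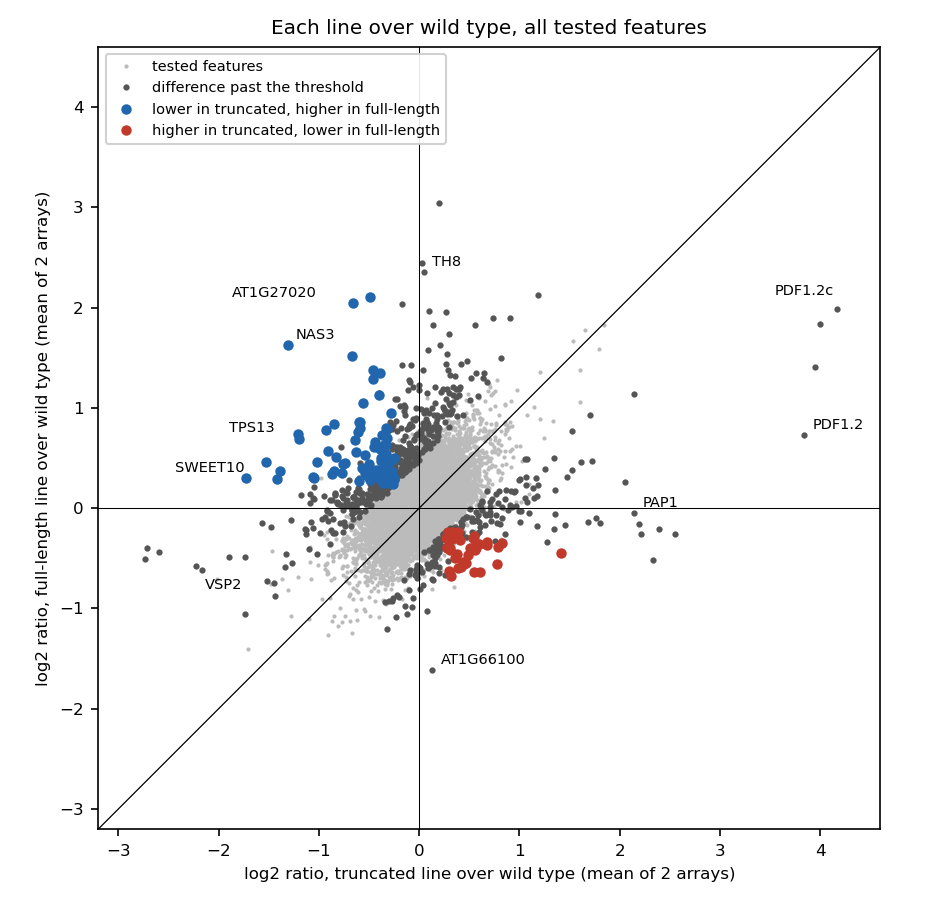
Mean log2 ratio over wild type in the truncated line (x axis) and in the full-length line (y axis), 1 point per tested feature, each the mean of 2 arrays. The diagonal marks equal ratios. The 37 red points lie right of and below 0, the 95 blue points left of and above 0, and the defensin genes lie far to the right of the diagonal.

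A difference of ratios can also come from the wild type channel, so both channels were compared between arrays of the same dye. Over all features the SD of the line channel difference was 0.28 in replicate 1 and 0.27 in replicate 2, against 0.12 in both for the wild type channel. In 700 of the 701 called features the line channel differed with the sign of the ratio in both replicates. The exception was AT3G08870. Its line channels differed by -0.42 in replicate 1 and 0.25 in replicate 2, its wild type channels by 0.19 and 0.77. Called features were chosen for their difference of ratios, of which the line channel is a part, so such agreement was favoured in advance. The share over all features was not computed, and the count is given as a description. Among the 104 genes chosen for naming, the mean wild type channel difference passed 0.5 for 1 gene only, the defensin PDF1.2. The wild type signal of PDF1.2 was 1.51 and 1.53 higher on the truncated arrays than on the full-length arrays, while its line signal was 4.62 and 4.65 higher. Its difference of ratios is therefore smaller than the difference between the line channels.

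**Figure D2:**
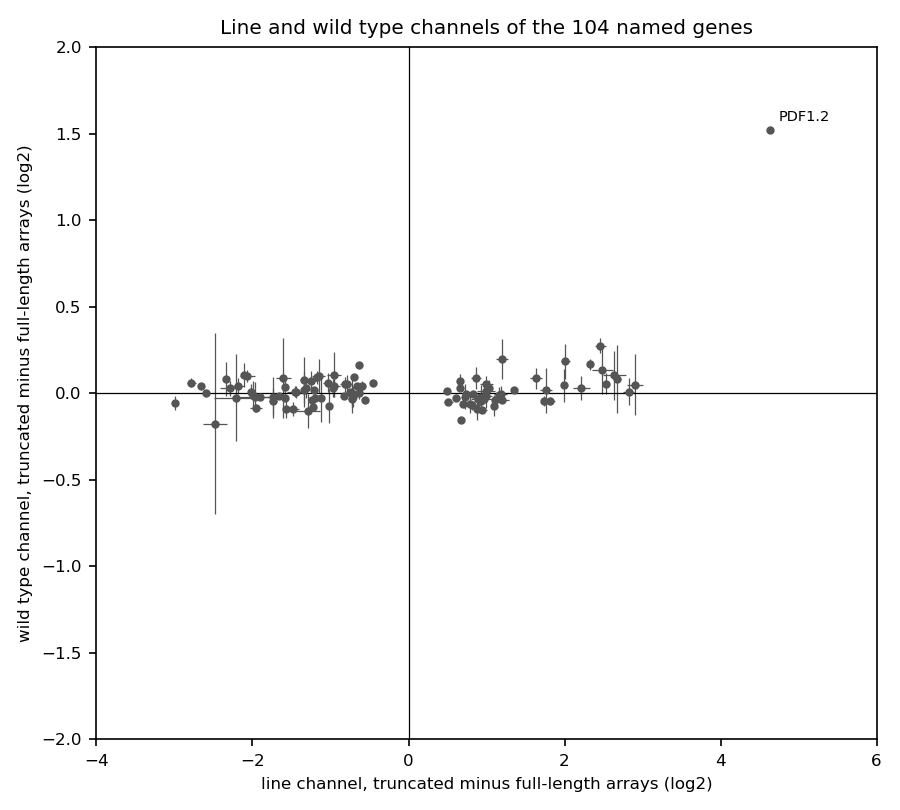
Difference between truncated and full-length arrays in the line channel (x axis, log2) and in the wild type channel (y axis, log2) for the 104 named genes. Points are means of the 2 replicate numbers and bars span both. The points lie along the horizontal axis apart from PDF1.2, whose wild type channel differed by 1.52 on average.

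Genes that moved in opposite directions were counted where each line differed from wild type, with opposite signs, and the lines differed from each other. There were 132 of them (0.588%). Of these, 37 (0.165%) rose in the truncated line and fell in the full-length line. The reverse, a fall in the truncated line and a rise in the full-length line, was found for 95 (0.423%). Asking only for a difference between the lines and for opposite signs on all arrays gave 132 and 290 features. The median difference was 0.94 in the first class and -0.89 in the second, and 11 and 41 were at least 2-fold apart. In 20 genes both lines moved by at least 0.5 on the log2 scale and stood at least 2-fold apart, and 17 of these fell in the truncated line. The count fell to 78 without truncated replicate 1, to 80 without full-length replicate 1 and to 76 without full-length replicate 2, and it was 97 without truncated replicate 2. All of 4 such fits kept 4 of the 37 and 20 of the 95. Leaving out an array unbalances the dye orientations of the lines, so an effect of dye or replicate number that both lines share no longer cancels. Calls kept or lost in such fits, here and below, are therefore a description and no measure of stability. With the replicate block the classes held 524 (2.34%) and 778 features (3.47%).

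NAS3, a nicotianamine synthase whose product chelates iron and other metals, showed the largest fall of all. Its log2 ratios were -1.31 and -1.32 on the truncated arrays, against 1.66 and 1.60 on the full-length arrays. The truncated line thus lay more than 2-fold below wild type on both arrays and the full-length line more than 2-fold above it, with replicates that almost coincided. Between the lines the difference was -2.94 (SE 0.08, adjusted p = 0.00322), or 7.66-fold.

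A pair of terpenoid synthase genes moved in the same way. TPS12 had log2 ratios of -1.22 and -1.20 on the truncated arrays, against 0.53 and 0.95 on the full-length arrays, a difference of -1.95 (SE 0.15, adjusted p = 0.011). TPS13 had -1.08 and -1.30 on the truncated arrays, against 0.70 and 0.69 on the full-length arrays, a difference of -1.89 (SE 0.10, adjusted p = 0.00484). The full-length replicates of TPS12 were spread more widely than those of TPS13. SWEET10, a sugar transporter of the plasma membrane, stood at -1.73 and -1.72 on the truncated arrays, against 0.30 and 0.30 on the full-length arrays, a difference of -2.03 (SE 0.08, adjusted p = 0.00339), most of it from the truncated line. The opposite call for SWEET10 was kept in 2 of the 4 fits that each leave out an array, and those of NAS3, TPS12 and TPS13 in all 4.

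Genes of growth and development were also among those that fell in the truncated line and rose in the full-length line. SEP3, a MADS-domain factor of flower development, had log2 ratios of -0.91 and -0.74 on the truncated arrays, against 0.47 and 0.54 on the full-length arrays, a difference of -1.34 (SE 0.10, adjusted p = 0.00935). FTM1, an acyl-ACP desaturase gene linked to the floral transition, had -0.67 and -0.44 on the truncated arrays, against 1.04 and 1.07 on the full-length arrays, a difference of -1.61 (SE 0.11, adjusted p = 0.00745). The truncated arrays of FTM1 were lower than wild type by less than its full-length arrays were higher. A second FTM1 probe gave a smaller difference of -0.89. For GH9B13, a family 9 glycosyl hydrolase of the cell wall, the ratios were -0.92 and -0.88 on the truncated arrays, against 0.57 and 0.58 on the full-length arrays, a difference of -1.48 (SE 0.08, adjusted p = 0.00478). ORS1 (AT2G41230), annotated by that symbol and known as a small regulator of organ size, was nearly symmetric about wild type. It had -0.88 and -0.82 on the truncated arrays, against 0.84 and 0.85 on the full-length arrays, a difference of -1.69 (SE 0.08, adjusted p = 0.00436). LSH10, of a plant family of developmental regulators, differed by -1.39 (SE 0.09, adjusted p = 0.00643), and the NAC factor gene NAC047 by -1.18 (SE 0.08, adjusted p = 0.00825). A second NAC047 probe gave -0.40.

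A pair of cytochrome P450 genes followed this pattern. CYP89A9, which acts in the breakdown of chlorophyll, had log2 ratios of -0.48 and -0.72 on the truncated arrays, against 0.85 and 0.88 on the full-length arrays, a difference of -1.47 (SE 0.11, adjusted p = 0.00978). CYP71B23 differed by -1.32 (SE 0.09, adjusted p = 0.00762). Loci without a symbol in the table of gene names included AT1G27020, with -0.68 and -0.64 on the truncated arrays, against 2.01 and 2.07 on the full-length arrays and a difference of -2.70 (SE 0.08, adjusted p = 0.00322). Its rise in the full-length line was the larger move of the pair. AT4G19430 differed by -2.19 (SE 0.10, adjusted p = 0.00436), AT4G36430 by -1.98 (SE 0.08, adjusted p = 0.00339) and AT3G19550 by -1.71 (SE 0.09, adjusted p = 0.00472). AT5G39180 and AT5G41761 differed by -1.45 and -1.36. The fits that leave out an array kept all 4 of these opposite calls for each locus and P450 gene named in this paragraph.

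AT5G05250 led the 37 genes with the reverse pattern, with log2 ratios of 1.5 and 1.32 on the truncated arrays, against -0.40 and -0.50 on the full-length arrays and a difference of 1.86 (SE 0.10, adjusted p = 0.00484). The truncated line carried most of that difference. MIPS1, a synthase of the inositol precursor myo-inositol phosphate, had 0.84 and 0.71 on the truncated arrays, against -0.47 and -0.64 on the full-length arrays, a difference of 1.33 (SE 0.10, adjusted p = 0.011). MIPS3, a second gene of the same family picked out after its values were seen, went the other way and differed by -0.74 (SE 0.11, adjusted p = 0.0397). GAT1_2.1, a class I glutamine amidotransferase, had 0.60 and 0.62 on the truncated arrays, against -0.74 and -0.52 on the full-length arrays, a difference of 1.24 (SE 0.10, adjusted p = 0.0118). For MBP2, a myrosinase-binding protein of the mustard oil defence, the ratios were 0.51 and 0.58 on the truncated arrays, against -0.63 and -0.65 on the full-length arrays, a difference of 1.18 (SE 0.08, adjusted p = 0.00775). A second MBP2 probe gave 0.30, so that the probes agreed in sign and not in size. RGF9, a peptide of the root meristem growth factor family, had 0.49 and 0.45 on the truncated arrays, against -0.52 and -0.56 on the full-length arrays, a difference of 1.01 (SE 0.08, adjusted p = 0.011). MSRB6, a methionine sulfoxide reductase, differed by 1.01 (SE 0.08, adjusted p = 0.011), the acyltransferase gene GLC by 0.98 (SE 0.09, adjusted p = 0.014), and ELI3-1, of the cinnamyl alcohol dehydrogenase family, by 0.83 (SE 0.10, adjusted p = 0.0255). AT5G45950, AT1G12805, AT3G04320, AT5G55570, AT2G41870 and AT2G41800 lay between 0.94 and 1.17. Leaving out an array at a time kept the opposite call in all 4 fits for MIPS1, GAT1_2.1, MBP2 and RGF9, in 3 for AT5G05250, MSRB6 and GLC, and in 1 for ELI3-1 and AT1G12805. It was kept in 2 for AT5G45950, AT3G04320, AT5G55570, AT2G41870 and AT2G41800.

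**Figure D3:**
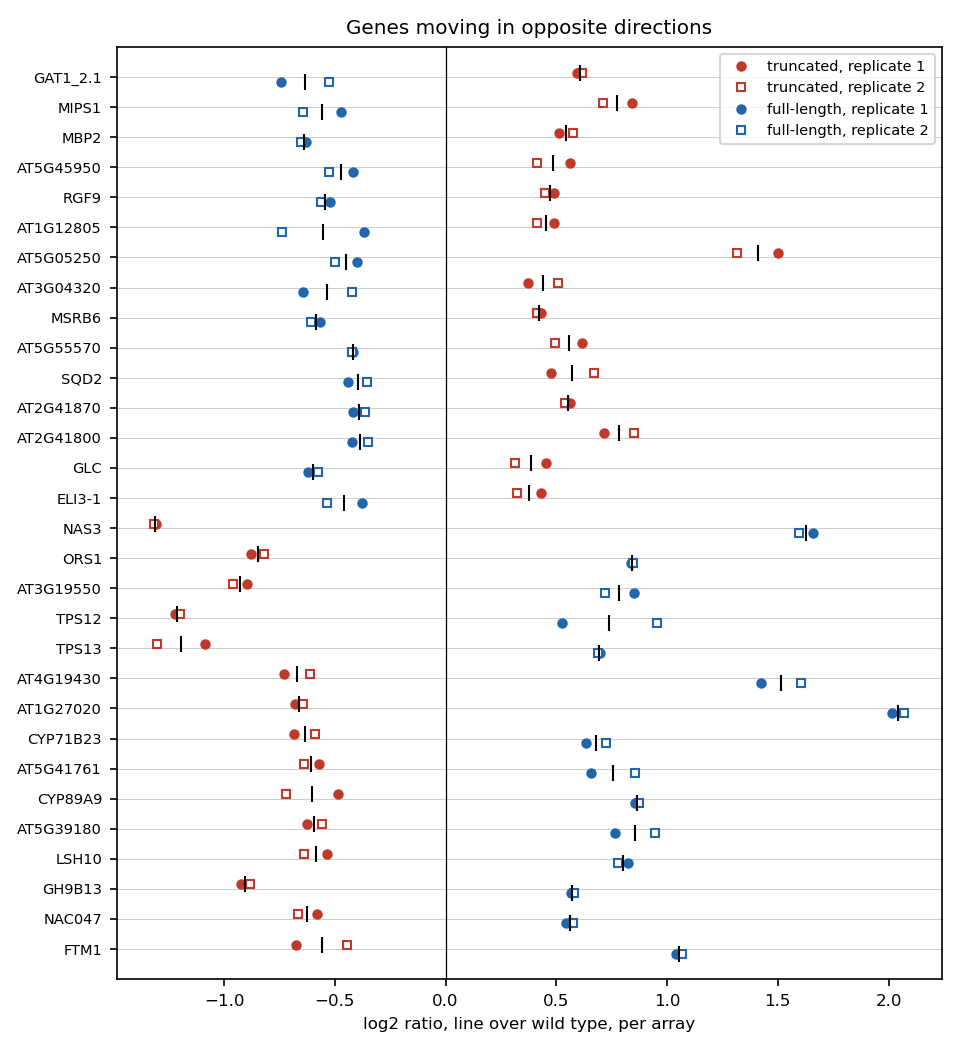
Log2 ratio of line over wild type on each array (x axis) for the 30 genes named among those moving in opposite directions, with truncated values above full-length values in each row. Circles are replicate 1, squares replicate 2 and bars their mean. In the upper 15 rows the truncated arrays lie above 0 and the full-length arrays below it, and in the lower 15 rows the reverse.

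Of 30 measured genes that plants switch on when iron is short, 16 (53.3%, against 0.972% of all features) were higher in the truncated line than in the full-length line and none was lower. The median difference was 0.76, against -0.0034 over all features. Against wild type, 21 of the 30 rose in the truncated line, where 7.09% of all features did, and 3 rose and 1 fell in the full-length line. The list was chosen with these results known and is no independent evidence. Leaving out an array at a time gave 15 to 17 higher members. With the replicate block 25 were higher and 1 lower, against 17.9% of all features higher and 21.2% lower. The lower one was HA2, a proton pump of the root plasma membrane.

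IRT1 is the main iron importer of the root, and FRO2 the reductase that turns ferric into ferrous iron before uptake. IRT1 had log2 ratios of 2.16 and 2.23 on the truncated arrays, against -0.46 and 0.15 on the full-length arrays, a difference of 2.35 (SE 0.21, adjusted p = 0.0131). A second IRT1 probe gave 2.24. FRO2 had 2.02 and 2.08 on the truncated arrays, against 0.17 and 0.35 on the full-length arrays, a difference of 1.79 (SE 0.10, adjusted p = 0.00484). Both genes were far above wild type on the truncated arrays, and the full-length arrays of IRT1 lay on either side of it. IRT2, a second transporter of that family, differed by 1.04 (SE 0.11, adjusted p = 0.0205). The zinc and iron transporter locus ZIP8, annotated as a transcribed pseudogene and no member of the list, stood at 1.83 and 1.78 on the truncated arrays, against -0.23 and -0.06 on the full-length arrays, a difference of 1.95 (SE 0.09, adjusted p = 0.00436). Its line signal was well above background on 1 of 2 full-length arrays, and its wild type signal on 1 of 2 arrays of each line.

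Among the regulators, bHLH38 and bHLH39, basic helix-loop-helix factors that activate IRT1 and FRO2 together with FRU, had differences of 1.62 (SE 0.08, adjusted p = 0.0045) and 1.62 (SE 0.12, adjusted p = 0.0109). For bHLH38 the log2 ratios were 1.49 and 1.42 on the truncated arrays, against -0.16 and -0.17 on the full-length arrays. For bHLH39 they were 1.35 and 1.21 on the truncated arrays, against -0.20 and -0.48 on the full-length arrays. The truncated arrays of both genes were more than 2-fold above wild type and the full-length arrays below it. BHLH100 and BHLH101, of the same subgroup, were not well above background in the full-length line on either array. The truncated line's signal was at least 3.3-fold higher for BHLH100 (adjusted p = 0.00529) and at least 2.85-fold higher for BHLH101 (adjusted p = 0.00652). This bound takes the full-length line at the lowest signal that is above background on its arrays, or at its own signal where that is higher. It covers the line channels alone. The adjusted p tests the difference of ratios, which was 3.64-fold for BHLH100 and 2.56-fold for BHLH101. The wild type signal of BHLH100 was well above background on no array, so its ratios are not measured levels. FRU itself, the partner factor, was not past the threshold, with -0.39 and -0.22 on the truncated arrays, against -0.68 and -0.43 on the full-length arrays. PYE, a repressor of the iron storage genes, did not pass either, at a difference of 0.29, and the ubiquitin ligase gene BTS had 0.35 and 0.76 on the truncated arrays, against -0.53 and 0.07 on the full-length arrays, with an adjusted p of 0.161. ORG1 differed by 1.41 (SE 0.08, adjusted p = 0.00521).

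Among the largest rises of the whole comparison were AT2G30766, AT1G47400 and AT1G47395, listed with the iron genes and without a symbol in the table of gene names. AT2G30766 had log2 ratios of 2.24 and 2.87 on the truncated arrays, against -0.57 and 0.05 on the full-length arrays, a difference of 2.81 (SE 0.29, adjusted p = 0.0189). AT1G47400 had 2.43 and 2.35 on the truncated arrays, against -0.31 and -0.10 on the full-length arrays, a difference of 2.60 (SE 0.11, adjusted p = 0.00339). Its line signal was well above background on 1 of 2 full-length arrays. AT1G47395 had 2.07 and 2.36 on the truncated arrays, against -0.49 and -0.03 on the full-length arrays, a difference of 2.47 (SE 0.19, adjusted p = 0.0104). All 3 were at least 4-fold above wild type on both truncated arrays and close to or below wild type on the full-length arrays.

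The rest included transport and chelation genes. NAS4, a nicotianamine synthase, differed by 0.82 (SE 0.10, adjusted p = 0.0279), the vacuolar transporter genes ZIF1 and MTPA2 by 0.75 (SE 0.12, adjusted p = 0.0482) and 0.64 (SE 0.10, adjusted p = 0.0468), and AT1G74770 by 0.77 (SE 0.10, adjusted p = 0.0345). The call for MTPA2 was lost without truncated replicate 2 (adjusted p = 0.0712). CYP82C4, an enzyme of coumarin synthesis, was not well above background in the full-length line and at least 1.73-fold higher in the truncated line (adjusted p = 0.0405). That adjusted p tests the difference of ratios, and the wild type signal of CYP82C4 was well above background on no array. OPT3, which loads iron into the phloem, came near the threshold at 0.51 (SE 0.09, adjusted p = 0.0546). ABCG37, a coumarin exporter, NRAMP4, a vacuolar iron exporter, NAS2 and MYB10 had differences between 0.18 and 0.38 and did not pass. FRO3, a mitochondrial iron reductase, had 0.82 and 0.44 on the truncated arrays, against 0.48 and 0.69 on the full-length arrays, with no difference of more than its spread.

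Of 12 measured genes of iron storage and of nicotianamine transport in the shoot, 3 were lower in the truncated line (25%, against 2.15% of all features) and none was higher, with a median difference of -0.26. Beside NAS3 these were YSL1, a transporter of metal-nicotianamine complexes, with 0.45 and 0.35 on the truncated arrays, against 1.23 and 1.14 on the full-length arrays and a difference of -0.79 (SE 0.09, adjusted p = 0.0221), and NAS1, with a difference of -0.63 (SE 0.09, adjusted p = 0.0404). The call for NAS1 was lost without truncated replicate 2 (adjusted p = 0.0585) and without full-length replicate 1 (adjusted p = 0.0576). YSL1 and NAS1 were above wild type on the arrays of both lines, by less in the truncated line. A second YSL1 probe gave a smaller difference of -0.38. The ferritins, which store iron in plastids, did not pass, with differences of -0.19 for FER1, -0.17 for FER2, 0.35 for FER3 and -0.15 for FER4. With the block 9 of the 12 were lower and 2 higher, the shares over all features being 21.2% lower and 17.9% higher. Of the nicotianamine synthases, NAS4 was higher, NAS1 and NAS3 were lower and NAS2 was not past the threshold at 0.18.

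Of 10 copper status genes 1 was lower (10%, against 2.15% of all features) and none was higher. It was CSD2, a copper and zinc superoxide dismutase of plastids, with -0.40 and -0.42 on the truncated arrays, against 0.20 and 0.25 on the full-length arrays and a difference of -0.64 (SE 0.08, adjusted p = 0.028). Its cytosolic relative CSD1 and their copper chaperone CCS had -0.66 (adjusted p = 0.0968) and -0.59 (adjusted p = 0.0571), while the iron superoxide dismutase FSD1 had 0.37 (adjusted p = 0.0863). With the block 3 were higher and 5 lower, where 17.9% of all features were higher and 21.2% lower.

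**Figure D4:**
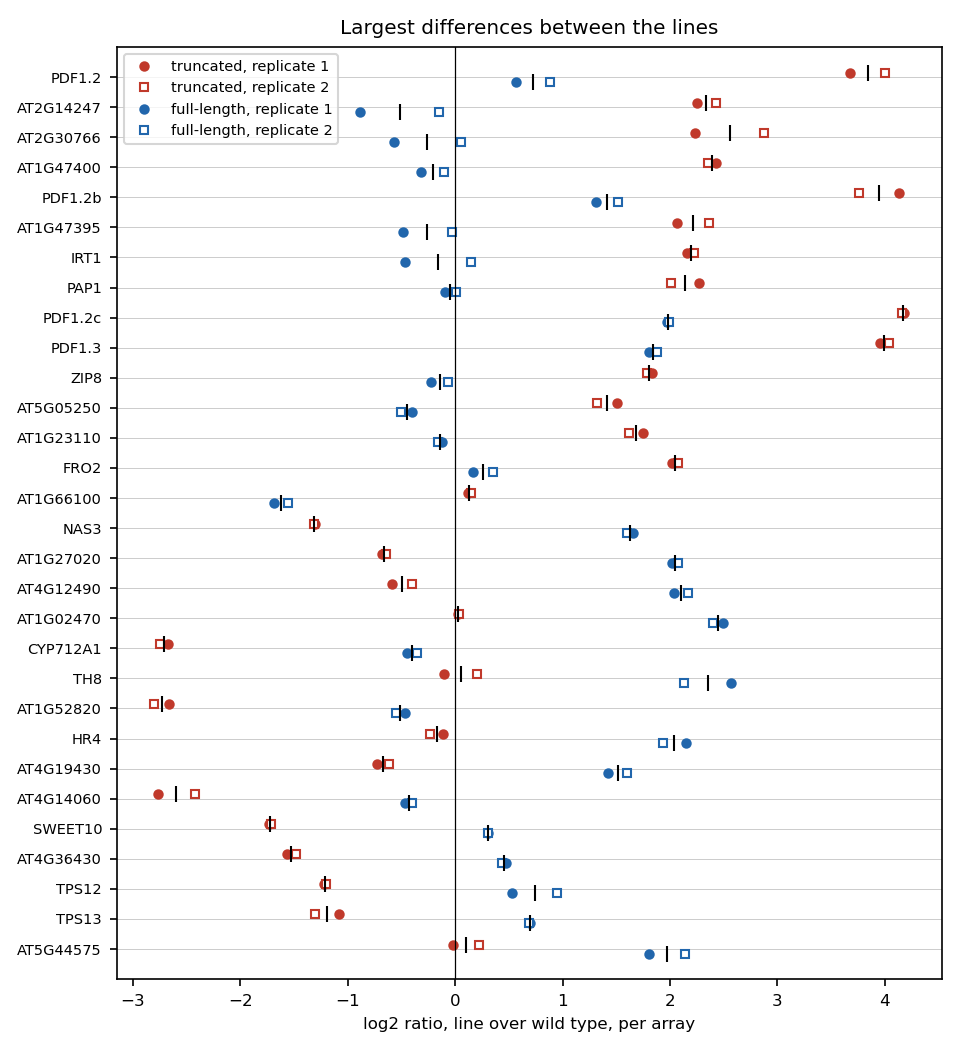
Log2 ratio of line over wild type on each array (x axis) for the 15 largest rises and the 15 largest falls of the truncated line against the full-length line, with truncated values above full-length values in each row. Circles are replicate 1, squares replicate 2 and bars their mean. The replicates of a line lie close together beside the gap between the lines.

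The plant defensins held 4 of the 10 largest rises. PDF1.2, PDF1.2b, PDF1.2c and PDF1.3 encode small antifungal proteins of the pathway that ethylene and jasmonate switch on together. PDF1.2c had log2 ratios of 4.18 and 4.16 on the truncated arrays, against 1.98 and 2.00 on the full-length arrays, a difference of 2.19 (SE 0.08, adjusted p = 0.00339). PDF1.3 had 3.95 and 4.04 on the truncated arrays, against 1.80 and 1.88 on the full-length arrays, a difference of 2.16 (SE 0.09, adjusted p = 0.00339). PDF1.2b had 4.13 and 3.76 on the truncated arrays, against 1.31 and 1.52 on the full-length arrays, a difference of 2.53 (SE 0.15, adjusted p = 0.00637). PDF1.2 had 3.68 and 4.01 on the truncated arrays, against 0.57 and 0.89 on the full-length arrays, a difference of 3.11 (SE 0.16, adjusted p = 0.00472). All were above wild type in both lines, and the truncated arrays were between 4.46-fold and 8.66-fold above the full-length arrays. These genes are close copies of each other, and probes may have bound transcripts of more than 1 of them. Apart from PDF1.2, their wild type channels differed between the arrays by at most 0.32.

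HCHIB, a basic chitinase of the same pathway, was lower in the truncated line, with -0.43 and -0.22 on the truncated arrays, against 0.30 and 0.50 on the full-length arrays and a difference of -0.73 (SE 0.12, adjusted p = 0.0482). PR4 had a difference of -0.53 (adjusted p = 0.127), and ORA59 and ERF2, ethylene response factors of which ORA59 activates the defensins, had 0.12 and 0.03, neither past the threshold. The branch counted 4 higher and 1 lower of 10 measured (50%, against 3.12% of all features), with a median difference of 0.28. The wound branch of jasmonate signalling had 5 lower and none higher of 22 (22.7%, against 2.15% of all features), with a median of 0.03 that turned to -0.0039 without full-length replicate 2.

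In that wound branch the vegetative storage proteins VSP1 and VSP2 fell furthest. VSP2 had log2 ratios of -2.27 and -2.17 on the truncated arrays, against -0.61 and -0.55 on the full-length arrays, a difference of -1.64 (SE 0.09, adjusted p = 0.00472). VSP1 had -2.22 and -2.10 on the truncated arrays, against -0.68 and -0.54 on the full-length arrays, a difference of -1.55 (SE 0.10, adjusted p = 0.00643). Both lines were below wild type, the truncated line by more than 4-fold. Other probes of VSP1 gave differences of -0.43 to -1.30, and another of VSP2 gave -1.20. LOX2, a plastid lipoxygenase of jasmonate synthesis, and CORI3, a jasmonate-induced lyase, were above wild type in both lines and lower in the truncated one. LOX2 had 0.93 and 0.89 on the truncated arrays, against 1.93 and 1.87 on the full-length arrays, a difference of -0.99 (SE 0.08, adjusted p = 0.0114). Other LOX2 probes gave smaller differences, of -0.12 to -0.68. CORI3 had 1.27 and 1.1 on the truncated arrays, against 2.12 and 2.13 on the full-length arrays, a difference of -0.94 (SE 0.09, adjusted p = 0.0173). JR1, a jacalin-like lectin, differed by -0.57 (SE 0.08, adjusted p = 0.0402), a call lost without truncated replicate 2 and without either full-length replicate (highest adjusted p = 0.078). The signalling genes MYC2, JAZ1 and JAZ10 had differences of 0.05, 0.22 and 0.30 and did not pass. With the block the list had 9 higher and 8 lower members, against 17.9% of all features higher and 21.2% lower.

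Of 24 flavonoid genes measured, 5 were higher (20.8%, against 0.972% of all features) and none was lower, with a median difference of 0.27. Leading them was PAP1, the MYB factor that switches on anthocyanin synthesis. It had 2.27 and 2.01 on the truncated arrays, against -0.10 and 0.0039 on the full-length arrays, a difference of 2.19 (SE 0.12, adjusted p = 0.00472), and the full-length arrays lay at the wild type level. DFR and GSTF12 act late in the pathway, DFR as a reductase and GSTF12 in carrying anthocyanins to the vacuole. DFR had 1.55 and 1.41 on the truncated arrays, against 0.34 and 0.27 on the full-length arrays, a difference of 1.17 (SE 0.09, adjusted p = 0.011), and GSTF12 had 1.22 and 1.28 on the truncated arrays, against 0.28 and 0.51 on the full-length arrays, a difference of 0.86 (SE 0.11, adjusted p = 0.0279). A second GSTF12 probe gave 0.16. The acyltransferase-like gene scpl10 differed by 0.75 (SE 0.08, adjusted p = 0.0213) and CHIL, a helper of chalcone synthase, by 0.65 (SE 0.09, adjusted p = 0.036), a call lost without full-length replicate 1 (adjusted p = 0.051). The early enzymes TT4, TT5, F3H and TT7 did not pass, with 0.40, 0.24, 0.56 and -0.04. The repressor gene MYBL2 had -0.38 (adjusted p = 0.223). With the block 17 of the 24 were higher and 2 lower, the shares over all features being 17.9% higher and 21.2% lower. The lower ones were MYBL2 and the flavonol regulator MYB12.

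Phosphate starvation genes gave 6 higher and none lower of 18 measured (33.3%, against 0.972% of all features), with a median difference of 0.25. Most of the 6 make membrane lipids without phosphorus, the galactolipid synthases MGDC and MGD2 and the sulfolipid enzymes SQD1 and SQD2. MGDC had log2 ratios of 1.54 and 1.15 on the truncated arrays, against 0.0047 and -0.42 on the full-length arrays, a difference of 1.55 (SE 0.20, adjusted p = 0.0285). MGD2 had 0.68 and 0.67 on the truncated arrays, against -0.41 and -0.32 on the full-length arrays, a difference of 1.04 (SE 0.08, adjusted p = 0.011), and SQD2 had 0.47 and 0.67 on the truncated arrays, against -0.44 and -0.35 on the full-length arrays, a difference of 0.97 (SE 0.10, adjusted p = 0.0205). Both of these rose in the truncated line and fell in the full-length line, as did SRG3, a glycerophosphodiesterase, with a difference of 0.72 (SE 0.08, adjusted p = 0.0217). The opposite calls of MGD2 and SQD2 were kept in 2 of the 4 fits that leave out an array, and that of SRG3 was lost in all 4. SQD1 differed by 0.93 (SE 0.09, adjusted p = 0.0188) and SPX1, a phosphate sensor, by 0.85 (SE 0.09, adjusted p = 0.0223). The uptake gene PHT1;1 and the acid phosphatase gene PAP17 did not pass, at 0.22 and -0.04, and RNS1, a ribonuclease, had -0.64 (adjusted p = 0.141). With the block 11 were higher and 1 lower, where 17.9% of all features were higher and 21.2% lower.

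Nitrate assimilation genes gave 5 lower and none higher of 17 (29.4%, against 2.15% of all features) and a median difference of -0.19. NIA1 and NIA2 encode the nitrate reductases and NIR1 the nitrite reductase. NIA1 had -0.72 and -0.80 on the truncated arrays, against 0.50 and 0.38 on the full-length arrays, a difference of -1.20 (SE 0.09, adjusted p = 0.0104). NIA2 had -0.43 and -0.48 on the truncated arrays, against 0.59 and 0.62 on the full-length arrays, a difference of -1.06 (SE 0.08, adjusted p = 0.0104). NIR1 had -0.44 and -0.24 on the truncated arrays, against 0.31 and 0.45 on the full-length arrays, a difference of -0.72 (SE 0.11, adjusted p = 0.041). All 3 enzymes fell in the truncated line and rose in the full-length line. Leaving out an array kept that opposite call in all 4 fits for NIA2, in 3 for NIA1 and in 2 for NIR1. BT1, a BTB and TAZ domain protein that nitrate induces, differed by -0.85 (SE 0.08, adjusted p = 0.016) through the truncated line. RFNR1, a root ferredoxin reductase, differed by -0.51 (SE 0.08, adjusted p = 0.0488), a call lost without any 1 of the arrays (highest adjusted p = 0.123). The nitrate transporter and sensor NRT1.1 had -0.41 (SE 0.08, adjusted p = 0.0652). With the block 9 were lower and 1 higher, against 21.2% of all features lower and 17.9% higher.

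Of 26 measured genes listed for salicylic acid, camalexin or resistance, 8 were lower in the truncated line (30.8%, against 2.15% of all features). None was higher, and the median difference was -0.12. HR4, a relative of the mildew resistance gene RPW8, had log2 ratios of -0.11 and -0.23 on the truncated arrays, against 2.15 and 1.94 on the full-length arrays, a difference of -2.22 (SE 0.11, adjusted p = 0.00436). PAD3, the last enzyme of camalexin synthesis, had 0.37 and 0.17 on the truncated arrays, against 2.19 and 1.73 on the full-length arrays, a difference of -1.69 (SE 0.18, adjusted p = 0.0199). AT4G12490 had -0.59 and -0.40 on the truncated arrays, against 2.04 and 2.17 on the full-length arrays, a difference of -2.60 (SE 0.11, adjusted p = 0.00339). For HR4 and PAD3 the truncated arrays lay near wild type and the full-length arrays far above it. AT4G12490 was below wild type in the truncated line, and its opposite call was kept in 3 of the 4 fits that leave out an array. The lipid transfer-like genes AZI1 and EARLI1, which lie in the same family as AT4G12490, differed by -0.75 (SE 0.09, adjusted p = 0.0257) and -0.97 (SE 0.08, adjusted p = 0.0118), and AT4G12500 by -1.08 (SE 0.11, adjusted p = 0.0177). Their similar sequences may share probes. NIMIN-2, a partner of the salicylic acid receptor NPR1, differed by -0.64 (SE 0.09, adjusted p = 0.0367), a call lost without full-length replicate 2 (adjusted p = 0.0578).

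SAG13, a dehydrogenase gene of senescence and defence, had a fitted difference of -2.84 (adjusted p = 0.0139). Its ratios were -0.06 and 0.47 on the truncated arrays, against 2.75 and 3.34 on the full-length arrays. Its line signal was above background on 1 of 2 truncated arrays and its wild type signal on none of those, so the truncated ratio is not a measured level. FRK1, a receptor-like kinase of immune signalling outside the list, was not well above background in the truncated line. Its line signal was at least 2.98-fold higher in the full-length line, and its difference of ratios was 2.86-fold (adjusted p = 0.0109). The upstream genes of the salicylic acid pathway did not pass. EDS16, the enzyme of salicylic acid synthesis, had 0.04, PAD4 -0.13, EDS1 0.014 and NPR1 -0.0042. PR5, a late marker of the response, had 0.47 (adjusted p = 0.0524), opposite in sign to the 8. With the block 12 were lower and 3 higher, the shares over all features being 21.2% lower and 17.9% higher. Keeping spots that the scanner software marked as outliers left 2 of the 8.

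Among glutathione transferase and detoxification genes 5 of 24 were lower in the truncated line (20.8%, against 2.15% of all features) and none was higher, with a median difference of -0.12 that turned to 0.0056 with median centring. TH8, a thioredoxin, had -0.10 and 0.20 on the truncated arrays, against 2.57 and 2.14 on the full-length arrays, a difference of -2.30 (SE 0.18, adjusted p = 0.011). GSTF6 had 0.55 and 0.57 on the truncated arrays, against 1.88 and 1.78 on the full-length arrays, a difference of -1.27 (SE 0.08, adjusted p = 0.00745), and GSTF7 had -0.19 and -0.26 on the truncated arrays, against 1.02 and 0.72 on the full-length arrays, a difference of -1.10 (SE 0.12, adjusted p = 0.0232). GSTF6 and GSTF7 encode glutathione transferases of the phi class, and GSTF6 acts in camalexin synthesis. The tau class genes GSTU4 and GSTU12 differed by -0.80 (SE 0.08, adjusted p = 0.0205) and -0.70 (SE 0.10, adjusted p = 0.041). With the block 10 were lower and 2 higher, where 21.2% of all features were lower and 17.9% higher. With marked spots kept 1 was lower.

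Early factors of the response to stress or touch were higher in the truncated line in 4 of 16 cases (25%, against 0.972% of all features) and lower in none, with a median difference of 0.38. WRKY40 and WRKY33 are transcription factors of early defence. WRKY40 had -0.36 and -0.28 on the truncated arrays, against -1.34 and -1.06 on the full-length arrays, a difference of 0.88 (SE 0.12, adjusted p = 0.0343). WRKY33 had -0.18 and -0.10 on the truncated arrays, against -1.0 and -0.94 on the full-length arrays, a difference of 0.83 (SE 0.08, adjusted p = 0.0185). The zinc finger gene SZF1 differed by 0.64 (SE 0.09, adjusted p = 0.0367) and TCH4, a cell wall enzyme induced by touch, by 0.62 (SE 0.09, adjusted p = 0.041). In all 4 genes the full-length line lay clearly below wild type and the truncated line slightly below it. Calls were lost for SZF1 without truncated replicate 1 (adjusted p = 0.0563), and for TCH4 without truncated replicate 2 (adjusted p = 0.0597) and without full-length replicate 1 (adjusted p = 0.0632). ERF6, STZ and WRKY18 had 0.49, 0.51 and 0.55 and did not pass. With the block 13 of the 16 were higher and none was lower, against 17.9% of all features higher and 21.2% lower.

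Of the heat shock genes, 17 of 27 rose over wild type in the truncated line (against 7.09% of all features) and 19 of 27 in the full-length line (against 9.41% of all features). The lines differed in 6 of the 27 (22.2%, against 3.12% of all features), 4 higher and 2 lower in the truncated line, with a median difference of 0.11. The cytosolic small heat shock proteins HSP17.4, HSP17.6II and HSP17.6A were higher. HSP17.4 had 1.54 and 1.70 on the truncated arrays, against 0.43 and 0.50 on the full-length arrays, a difference of 1.15 (SE 0.09, adjusted p = 0.0114). HSP17.6II had 1.70 and 1.70 on the truncated arrays, against 1.05 and 0.80 on the full-length arrays, a difference of 0.78 (SE 0.11, adjusted p = 0.0378), HSP17.6A differed by 0.76 (SE 0.08, adjusted p = 0.0221) and AT1G53540 by 1.00 (SE 0.10, adjusted p = 0.0177). HSP18.2, another small heat shock protein, fell in the truncated line and rose in the full-length line. It had -0.31 and -0.25 on the truncated arrays, against 0.96 and 0.93 on the full-length arrays, a difference of -1.23 (SE 0.08, adjusted p = 0.00745). That opposite call was kept in 2 of the 4 fits that leave out an array. HSF4, a heat shock factor of class B, differed by -0.64 (SE 0.09, adjusted p = 0.0339). The chaperones HSP101 and HSP90.1 and the factor HSFA2 had 0.11, 0.21 and 0.14 and did not pass. With the block 11 were higher and 5 lower, the shares over all features being 17.9% higher and 21.2% lower.

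Genes listed as driven by the DRE divided evenly, 2 higher and 2 lower of 20 measured (20%, against 3.12% of all features), with a median difference of 0.0061. Their promoters were not searched for the DRE, so the list may hold genes without it. COR413IM1, a cold-regulated membrane protein of plastids, had -1.0 and -1.19 on the truncated arrays, against 0.18 and -0.08 on the full-length arrays, a difference of -1.14 (SE 0.13, adjusted p = 0.0224). GolS1, which makes galactinol, had -0.80 and -0.89 on the truncated arrays, against 0.18 and 0.12 on the full-length arrays, a difference of -0.99 (SE 0.08, adjusted p = 0.0118). In both, the truncated line was below wild type and the full-length line near it. COR15A, a plastid protein of freezing tolerance, differed by 0.60 (SE 0.09, adjusted p = 0.0401) and P5CS1, the first enzyme of proline synthesis, by 0.49 (SE 0.08, adjusted p = 0.0467). The COR15A call was lost without truncated replicate 1 and without either full-length replicate (highest adjusted p = 0.0758), and the P5CS1 call without any 1 of the arrays (highest adjusted p = 0.129). A second P5CS1 probe, above background in no channel, gave -0.03. LTI78, the classical DRE gene, had 0.56 and 0.48 on the truncated arrays, against 0.11 and 0.33 on the full-length arrays, and its difference of 0.29 did not pass. RD22 had a difference of 0.93 (adjusted p = 0.0732). The median of the list changed sign with the mean over all probes of a gene (-0.03) and without truncated replicate 2 (-0.04). With the block 5 were higher and 8 lower, where 17.9% of all features were higher and 21.2% lower.

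Of the 11 DREB, CBF and related factor genes 4 were measured and none passed. The plant's own DREB2A had 0.22 and 0.04 on the truncated arrays, against 0.53 and 0.24 on the full-length arrays, a difference of -0.25 (SE 0.13, adjusted p = 0.365), and the ubiquitin ligases DRIP1 and DRIP2, which mark DREB2A for degradation, had 0.27 and 0.18. With the block 2 were higher and 2 lower, against 17.9% of all features higher and 21.2% lower. Among 18 genes of abscisic acid signalling 1 passed (5.56%, against 3.12% of all features), PYL6, an abscisic acid receptor. It had -0.34 and -0.25 on the truncated arrays, against 0.38 and 0.41 on the full-length arrays, a difference of -0.69 (SE 0.08, adjusted p = 0.0267), and its opposite call was lost in all 4 fits that leave out an array. The median of the list was -0.04, and it turned to 0.06 with median centring. RD20 and RD26 had 0.05 and 0.28. With the block 2 were higher and 7 lower, the shares over all features being 17.9% higher and 21.2% lower.

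Glucosinolate genes gave 1 higher and 5 lower of 28 (21.4%, against 3.12% of all features), with a median difference of -0.14 that turned to 0.02 with median centring. Keeping outlier-marked spots left 1 higher and 2 lower, and the scanner software's own log ratios called 0 of the 28. The lower ones included NSP1 and GTR2. NSP1, which diverts glucosinolate breakdown to nitriles, had -0.61 and -0.59 on the truncated arrays, against 0.29 and 0.25 on the full-length arrays, a difference of -0.87 (SE 0.08, adjusted p = 0.0138). Its opposite call was kept in 2 of the 4 fits that leave out an array. Other NSP1 probes gave differences of -0.46 to -1.02. On the probe with -0.46 the full-length line stood at -0.07, so opposite directions were not seen there. GTR2, a glucosinolate transporter, had -0.14 and -0.06 on the truncated arrays, against 0.62 and 0.68 on the full-length arrays, a difference of -0.75 (SE 0.08, adjusted p = 0.0223). CYP79B2 and CYP79B3, which start indole glucosinolate and camalexin synthesis from tryptophan, differed by -0.81 (SE 0.10, adjusted p = 0.0281) and -0.53 (SE 0.08, adjusted p = 0.0453), and the MYB factor gene of that branch, MYB34, by -0.60 (SE 0.09, adjusted p = 0.0395). The CYP79B3 call was lost without any 1 of the arrays (highest adjusted p = 0.114), and the MYB34 call without truncated replicate 2 and without either full-length replicate (highest adjusted p = 0.0693). ESP, which like NSP1 steers breakdown away from isothiocyanates, was the higher one, with 0.60 and 0.60 on the truncated arrays, against -0.18 and -0.10 on the full-length arrays and a difference of 0.74 (SE 0.08, adjusted p = 0.0221). A second ESP probe gave 0.59 and another one 0.16. The aliphatic regulators MYB28 and MYB29 had 0.03 and 0.52 (adjusted p = 0.0608 for MYB29). With the block 6 were higher and 13 lower, where 17.9% of all features were higher and 21.2% lower.

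Methyltransferases of the SABATH family and major latex protein-like genes were lower in the truncated line in 4 of 14 cases (28.6%, against 2.15% of all features) and higher in none, with a median difference of -0.38. AT5G37990 had -1.85 and -1.95 on the truncated arrays, against -0.51 and -0.46 on the full-length arrays, a difference of -1.41 (SE 0.09, adjusted p = 0.00642). AT5G37970 and AT5G38020 differed by -1.25 (SE 0.11, adjusted p = 0.0119) and -1.17 (SE 0.10, adjusted p = 0.0132). All 3 lay below wild type in both lines and more than 2-fold below it in the truncated line. MLP28 differed by -0.51 (SE 0.08, adjusted p = 0.0424), a call lost without any 1 of the arrays (highest adjusted p = 0.102). MLP328 and MLP34 had larger differences, -1.30 and -1.04, and did not pass (adjusted p = 0.101 and 0.0628). With the block 12 were lower and 1 higher, against 21.2% of all features lower and 17.9% higher.

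Sugar starvation genes were measured in full, 15 of 15, and 2 were lower (13.3%, against 2.15% of all features). They were DIN2, a beta-glucosidase, with 0.08 and 0.50 on the truncated arrays, against 1.29 and 1.46 on the full-length arrays and a difference of -1.09 (SE 0.16, adjusted p = 0.0401), and ASN1, an asparagine synthetase, with -1.37 and -1.52 on the truncated arrays, against -0.70 and -0.80 on the full-length arrays and a difference of -0.70 (SE 0.10, adjusted p = 0.0353). The remaining 13 did not pass, and the median difference was 0.03. Other ASN1 probes gave differences of -0.32 and -0.68, and a second DIN2 probe gave -0.51. Of 9 senescence genes 1 was lower (11.1%, against 2.15% of all features), the chlorophyll breakdown enzyme ACD1, with 0.0067 and -0.17 on the truncated arrays, against 0.59 and 0.63 on the full-length arrays and a difference of -0.70 (SE 0.10, adjusted p = 0.0359), and the median was -0.34. Of 16 clock genes 1 was lower (6.25%, against 2.15% of all features), AT3G54500, at -0.52 (SE 0.08, adjusted p = 0.041), a call lost without any 1 of the arrays (highest adjusted p = 0.1). The clock median was -0.19, and with the block 1 was higher and 9 were lower, the shares over all features being 17.9% higher and 21.2% lower.

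**Figure D5:**
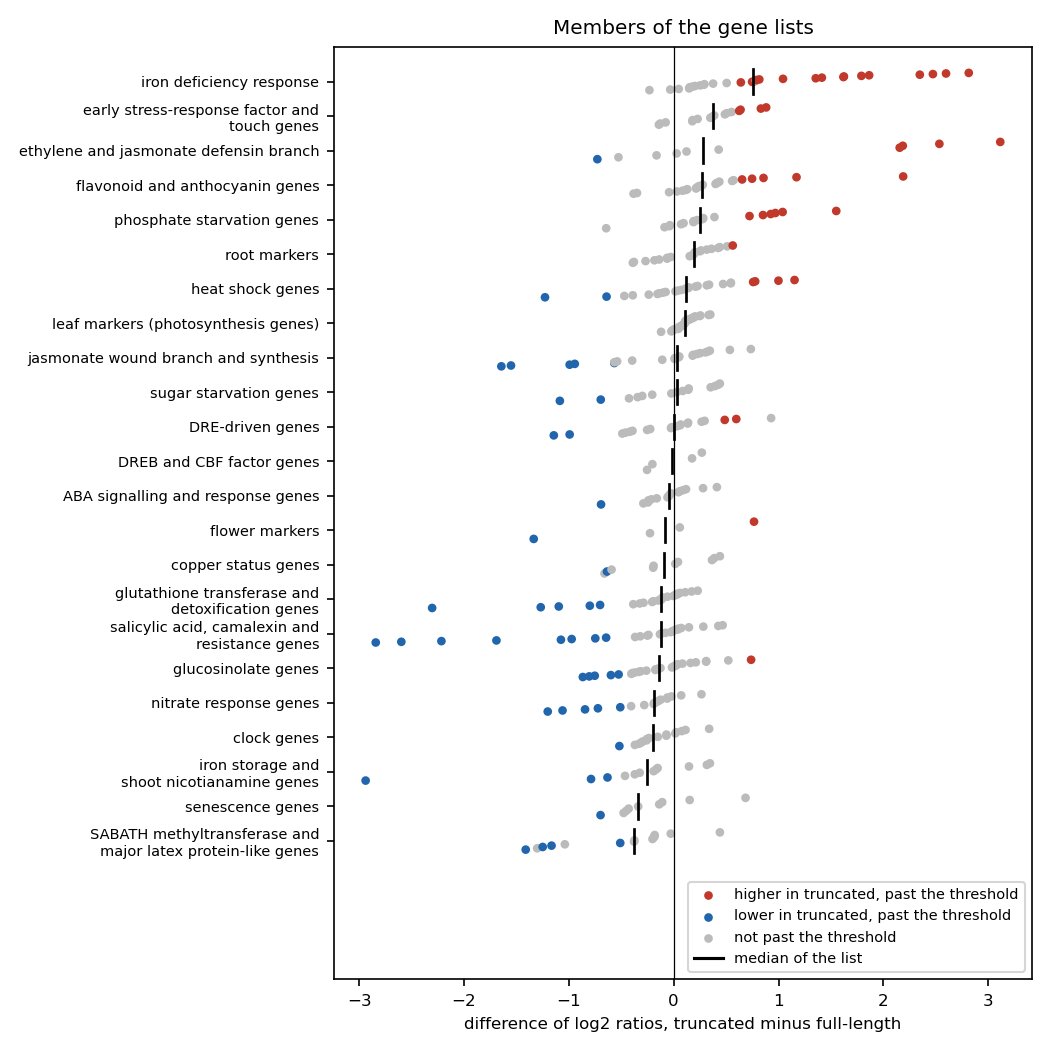
Difference of log2 ratios, truncated minus full-length (x axis), for every measured member of the gene and marker lists with at least 2 measured members, 1 point per gene. Red points passed the threshold and were higher in the truncated line, blue points passed and were lower, grey points did not pass, and black bars are list medians. The iron deficiency list lies furthest to the right, with a median of 0.76.

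The largest differences also held genes outside the lists. AT2G14247 rose in the truncated line, with log2 ratios of 2.25 and 2.43 on the truncated arrays, against -0.88 and -0.15 on the full-length arrays and a difference of 2.85 (SE 0.25, adjusted p = 0.0128). Its full-length replicates differed more from each other than its truncated ones, and its line signal was well above background on 1 of 2 full-length arrays. AT1G23110 differed by 1.83 (SE 0.09, adjusted p = 0.00436). AT1G66100 was near wild type in the truncated line and below it in the full-length line, with 0.12 and 0.14 on the truncated arrays, against -1.68 and -1.55 on the full-length arrays and a difference of 1.75 (SE 0.09, adjusted p = 0.0045).

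On the falling side, CYP712A1, a cytochrome P450, had -2.67 and -2.75 on the truncated arrays, against -0.45 and -0.35 on the full-length arrays, a difference of -2.31 (SE 0.09, adjusted p = 0.00339). A second CYP712A1 probe gave -0.65. AT1G52820 had -2.66 and -2.80 on the truncated arrays, against -0.46 and -0.55 on the full-length arrays, a difference of -2.22 (SE 0.09, adjusted p = 0.00339), and AT4G14060 had -2.77 and -2.43 on the truncated arrays, against -0.47 and -0.40 on the full-length arrays, a difference of -2.16 (SE 0.13, adjusted p = 0.00643). These 3 fell far below wild type in the truncated line and much less in the full-length line. AT1G02470 had 0.02 and 0.03 on the truncated arrays, against 2.50 and 2.40 on the full-length arrays, a difference of -2.42 (SE 0.08, adjusted p = 0.00339), and AT5G44575 differed by -1.87 (SE 0.15, adjusted p = 0.0114). In both, the full-length line was raised and the truncated line lay near wild type.

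Organ markers were measured because whole plants can hold organs in unequal shares. None of 37 leaf photosynthesis genes differed between the lines, where 3.12% of all features did. Their median difference was 0.11, which turned to -0.12 without truncated replicate 2 and to -0.10 without full-length replicate 1. Their summed signal of line over wild type was 0.727 and 1.11 on the truncated arrays, against 0.687 and 1.04 on the full-length arrays. It thus differed more between the replicate numbers than between the lines. Replicate number and dye orientation cannot be told apart here. Among 22 root markers 1 was higher in the truncated line (4.55%, against 0.972% of all features). It was BGLU22, a beta-glucosidase, at 0.56 (SE 0.08, adjusted p = 0.0386). That call was lost without truncated replicate 2 and without either full-length replicate. The median of the root list was 0.19, while its summed signal was 0.922 and 0.901 of wild type on the truncated arrays, against 1.06 and 1.07 on the full-length arrays. Sum and median thus differed in sign. The abundant PYK10, a root glucosidase, had -0.18 and -0.19 on the truncated arrays, against 0.19 and 0.21 on the full-length arrays. With the block 13 of 22 root markers were higher and 4 lower, and 10 of 37 leaf markers were higher (27%), where 39.1% of all features passed, 17.9% higher and 21.2% lower.

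Of 9 flower markers 4 were measured. SEP3 was lower and PI, a factor of petal and stamen identity, higher (50%, against 3.12% of all features). PI had 0.87 and 0.85 on the truncated arrays, against 0.13 and 0.06 on the full-length arrays, a difference of 0.77 (SE 0.08, adjusted p = 0.0201). SEP1 and AGL8 did not pass, at 0.06 and -0.23, and the defining floral genes AG, AP1, AP3 and LFY were not tested because they were too close to background. The summed flower marker signal was 0.797 and 0.892 of wild type on the truncated arrays, against 1.24 and 1.3 on the full-length arrays. Of 8 seed markers 1 was measured, CRA1, with a difference of -0.16 that did not pass. The share of root and flower tissue in the plants and its part in the other differences were not tested.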

How the data were processed

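Labelled RNA of each line was hybridised against wild type RNA on 2-colour Agilent arrays, 4 in all. Agilent Feature Extraction 10.7.3.1 read the scans, per the file headers, and the deposited scanner files hold median intensity of spots and of local background for both dyes. They also hold processed intensity and the log10 ratio of Cy5 over Cy3, which per the file headers the scanner software background-subtracted and dye-normalized. The deposited value table holds log2 ratios, which set against those log ratios ran as line over wild type without centring, their further processing being not given in the sources used here.

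From the median signals (no mean signals were read), outlier-marked spots were removed, normexp (offset 50) and within-array loess were applied with control spots at weight 0, and ratios were turned to line over wild type with limma 3.58.1 in R 4.3.3. Replicate 1 carried the line in Cy3 and replicate 2 in Cy5. Of 43603 probes, 86 lacked a value on an array. Spots of a probe were averaged and the brightest probe stood for a locus. Features were tested if the line channel on both arrays of a line, or the wild type channel on all 4 arrays, was well above background. Of the 22438 tested, 20337 carried a locus, and 20139 of these were matched to RefSeq names (TAIR10.1 gene table). Sequences and coordinates were not used here.

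The fit (lmFit and eBayes) had a mean per line, 2 residual degrees of freedom and 3.18 borrowed from other features. With the replicate number as a block these were 1 and 5.52. Adjusted p-values are Benjamini-Hochberg over all tested features at a threshold of 0.05, two-sided. The labels tie the replicate number to the dye orientation. Deviations of same-numbered arrays from their line's mean correlated at 0.78 across features, which are not independent, and with 2 pairs this is given as a description. Channels were compared after between-array quantile normalization of the average signal. A gene below background on both arrays of a line was given as a bound.

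Genes were named by rule. These were the 15 largest rises and 15 largest falls with a locus, up to 15 opposite genes in each direction ranked by the smaller of both ratios, and from each list the members past the threshold with the largest differences, at most 4. Further members of a list were picked after their values were seen. The genes, lists and comparisons were chosen with earlier results of these data known. Alternatives were median centring, no background correction, the scanner software's log ratios, the deposited table, outlier spots kept, other filters on dim probes, the mean over probes, line channels alone, the replicate block and leaving out each array. In the fits that leave out an array, a dye effect shared by both lines no longer cancels in the difference. The fit was also run on simulated ratios with independent noise, which do not cover the choice of processing. The number of arrays limits the precision.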

Additional observations from a re-analysis of the deposited data

Results flagged for a closer look

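The lines moved in opposite directions, and differed from each other by limma's test of the difference, in 37 features that were higher in the truncated line and in 95 that were lower in it. Of these, 20 genes were at least 0.5 away from wild type on the log2 scale in both lines and at least 2-fold apart. Among these, 3 were higher in the truncated line than in the full-length line, MIPS1 by 1.33, GAT1_2.1 by 1.24 and MBP2 by 1.18.

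The other 17 were lower in the truncated line. The differences, truncated minus full-length on the log2 scale, were -2.94 for NAS3, -2.70 for AT1G27020, -2.19 for AT4G19430, -1.95 for TPS12, -1.89 for TPS13 and -1.71 for AT3G19550. They were -1.69 for ORS1, -1.61 for FTM1, -1.48 for GH9B13, -1.47 for CYP89A9, -1.45 for AT5G39180 and -1.39 for LSH10. For AT5G41761 the difference was -1.36, for SEP3 -1.34, for CYP71B23 -1.32, for NAC047 -1.18 and for DMP1 -1.07. DMP1, a membrane protein gene of senescing tissue, had log2 ratios of -0.76 and -0.32 on the truncated arrays, against 0.64 and 0.42 on the full-length arrays.

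The wild type channels enter each ratio and were not tested by themselves. Between truncated and full-length arrays, 3 features differed there by at least 2-fold with 1 sign in both replicate numbers. The wild type signal of PDF1.2 was 1.51 higher on the truncated array than on the full-length array in replicate 1 and 1.53 higher in replicate 2. That of AT4G10220 was 1.16 and 1.66 higher, with the full-length arrays not well above background in either channel. That of the probe BP830498 was -1.05 and -1.21 on the same scale, thus lower on the truncated arrays. The line channels of AT4G10220 and BP830498 differed with the same sign, and their ratios did not pass between the lines.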

How the results depend on the processing

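Across all alternatives none of the 104 genes named by rule changed the sign of its difference. The 701 called features kept theirs too (671 of 671 still tested with the stricter filter on dim probes). Counts moved more. Median centring gave 0 features differing and 0 opposite. The scanner software's log ratios and the deposited table gave 173 and 66 each, outlier-marked spots kept gave 369 and 30, and no filter on dim probes gave 86 and 18. Asking for a difference of at least 1 on the log2 scale as well left 148. The replicate block gave 8782 and 1302, and line channels alone with the block 8411. Chosen after seeing the data, median centring with the block gave 10796 and 601, and the scanner software's log ratios with the block 5992 and 1050. The share of lower calls was 68.9% without and 54.2% with the block, and 35.5% for median centring with the block. Leaving out an array gave 713 to 801 differing, 532 to 551 of them shared with the 701, and 76 to 97 opposite, 59 to 70 of them shared with the 132. Counts stayed within 1.5 times of 701 and 132 without background correction (611 and 122), with the stricter filter (873 and 156) and with the mean over probes (758 and 144). Of 104 named genes, the call was lost for 104 with median centring, 55 without a filter, 44 with the software's log ratios, 26 with outlier spots kept, 5 to 7 without 1 array, 2 with no background correction, 2 with the mean over probes, and 1, NAC047, with the software's log ratios and the block (adjusted p = 0.0582). The cause of these changes was not tested. With 2 arrays for each line, the number of arrays limits the precision, and BHLH100, BHLH101, CYP82C4 and FRK1 were above background in 1 line only.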
